A study of Homo sapiens with 4 samples.

Results

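The ephrin, EPH, semaphorin, plexin and neuropilin genes of the UMSCC74B line were examined as one module of cell guidance. Members were chosen by gene name alone, and 53 of the 29655 distinct names in the count tables matched. They comprise 8 ephrins, 14 EPH receptors, 20 semaphorins, 9 plexins and 2 neuropilins. UMSCC74B is a cell line established from a squamous carcinoma of the head and neck (HNSCC). The 4 RNA-seq libraries come from 2 samples given control shRNA, labelled WT, and 2 given PRMT5 shRNA, labelled PRMT5 KD, all harvested at 72 h from total RNA with a directional kit. PRMT5 is an arginine methyltransferase that, as the study reports, methylates the RNA-binding protein FXR1. The study silenced PRMT5 and FXR1 separately and looked, among other things, for FXR1-bound mRNAs altered in both. The FXR1 knockdown was not analysed here. The labels speak of plasmid transfection and the methods of lentiviral particles, and nothing given here says whether the samples of a group were separate cultures, so p-values measure the spread between these samples, which may be technical.

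Guidance genes encode surface and secreted proteins that tell a cell where it may go. Ephrins sit on one cell and bind EPH receptor tyrosine kinases on its neighbour, and signals run into both cells, which often retract from each other. Semaphorins act mainly through plexins, which switch off small GTPases and loosen adhesion, and neuropilins serve as co-receptors for the secreted class 3 semaphorins and for VEGF. In epithelia and carcinomas the same proteins are known for their roles in contact, migration and vessel growth.

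Most of the measured guidance genes fell under PRMT5 KD. Of the 53 genes, 36 passed the filter on low values (RPKM, counts per kilobase of exon scaled for depth, of at least 0.5 in both libraries of a group, here by protein-coding counts before TMM scaling) and were tested. Among these, 24 fell and 2 rose (edgeR FDR under 0.05 and a log2 fold change of at least 0.5 in size), while 10 were not called. Over all 11895 protein-coding genes tested, 24.4% were called lower and 21.2% higher by the same rule. EFNA3, EPHA3 and SEMA4G, all called lower, and SEMA5A, not called, passed the filter through control alone. EPHA4, not called, passed through PRMT5 KD alone. A gene that passes through control alone is high there by selection, so the filter favours a fall for such genes. The median log2 fold change was -0.94 over the 36 genes and -0.00745 over all genes tested. Both PRMT5 KD libraries lay below both control libraries for 30 of the 36 genes, against 40.6% of all genes tested. For another 4 genes both lay above, against 39.9%, and for EPHA4 and SEMA7A the groups overlapped. Scaled to total counts in place of TMM factors, which moved the median of all genes to 0.17, the split over all genes was 2198 lower and 3508 higher instead of 2898 and 2523, and that of the guidance genes 20 and 3. Without control replicate 2, 15 guidance genes fell, with all 24 still below 0, and 1 rose, and without PRMT5 KD replicate 1, 4 rose. In bulk RNA, fewer cells of a type and less RNA per cell cannot be told apart.

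Several facts of the libraries stand beside these counts. The libraries held 52185289 to 65964558 counts, and rRNA took 14.2% to 15.3% of them in control and 18.0% to 26.2% under PRMT5 KD. PRMT5 itself had 28.8 and 25.7 RPKM in control and 40.3 and 45.6 RPKM under PRMT5 KD, so the transcript was higher in the libraries labelled PRMT5 KD (log2 fold change 0.66, standard error 0.12, FDR = 0.00543), and every direction given here is by label. The study checked the silencing by immunoblot, a protein measure that was not analysed here. That call was lost without control replicate 2 (0.58, FDR = 0.0674). Several defining markers of squamous epithelium were near 0 in this line. KRT5, KRT6A, KRT14 and CDH1 stayed at or under 0.204 RPKM in every library, and 6 of 10 such markers were under 0.5 RPKM throughout, with list sums of 10.3 and 9.16 RPKM in control and 7.08 and 9.95 RPKM under PRMT5 KD. Of the 3 tested, the desmosomal cadherin gene DSG3 had 7.72 and 6.53 RPKM in control and 3.36 and 4.56 RPKM under PRMT5 KD and was called lower (-0.85 (FDR = 0.00898)), as was TP63, a regulator of basal epithelium (-1.35 (FDR = 0.0110)), whereas the desmosomal PKP1 was called higher (0.79 (FDR = 0.00546)). In an edgeR fit without the filter, KRT14, KRT17 and SFN were called higher as well. KRT14 had 0 counts in both control libraries against 11 and 22 under PRMT5 KD (FDR = 0.00445). KRT17 went from 5 and 6 counts to 53 and 71 (3.43, FDR = 0.000465), and SFN from 3 and 5 to 28 and 86 (FDR = 0.00264). KRT5, KRT6A, EPCAM and CDH1 were not called in that fit. All 6 fibroblast markers (COL1A1, COL1A2, COL3A1, DCN, LUM and PDGFRB) were called lower, and their summed level went from 113 and 124 RPKM to 15.6 and 17.1 RPKM. Of the leukocyte markers, CD14 had 21 and 24.3 RPKM in control and 0.651 and 1.13 RPKM under PRMT5 KD. The summed level of 5 endothelial markers went from 1.39 and 1.83 RPKM to 0.292 and 0.193 RPKM. For 6 neural markers the sums were 2.49 and 2.60 RPKM in control and 1.43 and 1.86 RPKM under PRMT5 KD. The part of these shifts in the result on guidance genes was not tested. Of the markers of other cell types, the endothelial CDH5, TEK and KDR, the leukocyte PTPRC and CD3E and the neural RBFOX3 and GFAP were under 0.5 RPKM in every library. The endothelial PECAM1 had 0.956 and 1.26 RPKM in control and 0.0380 and 0.0189 RPKM under PRMT5 KD and was called lower. The neural MBP was called lower too, from 0.864 and 1.11 RPKM to 0.540 and 0.517 RPKM, but not after a length and GC correction. SYT1, another neural marker, stayed between 0.664 and 1.15 RPKM and was not called. Of the markers called lower, TP63, COL3A1 and PECAM1 passed the filter through control alone, so the filter favours a fall for them.

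**Figure D1:**
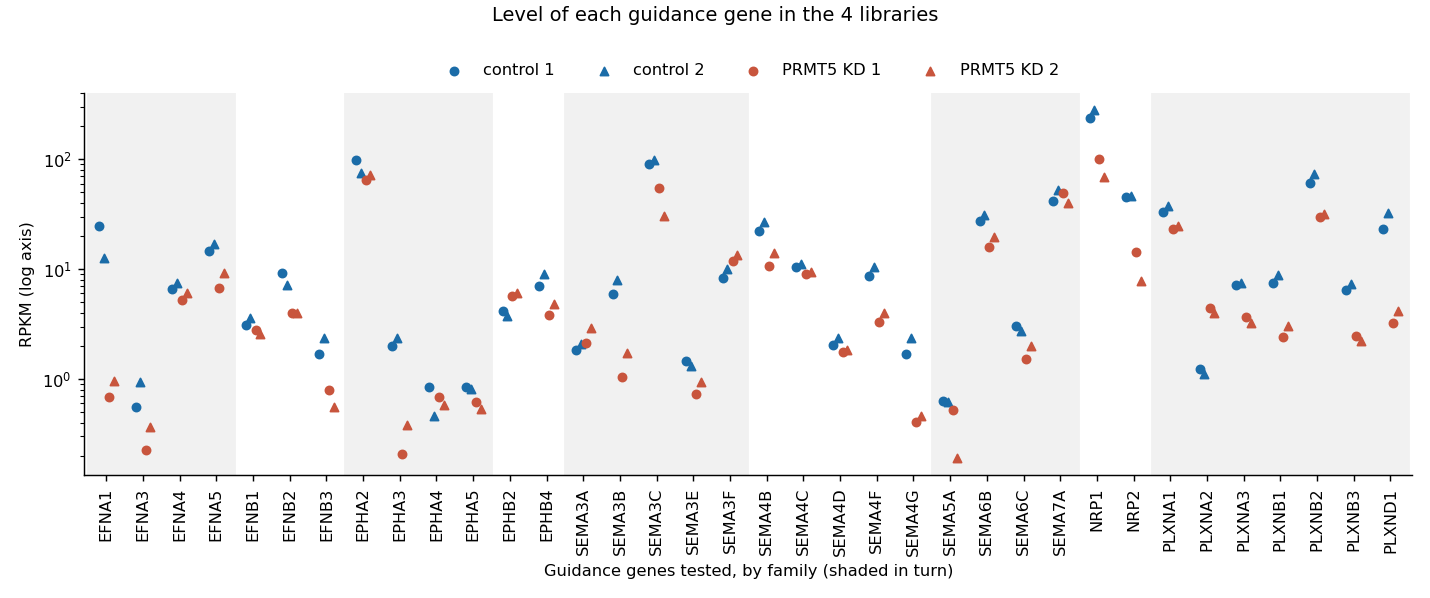
RPKM on a log axis for the 36 guidance genes tested, in the 2 control libraries (blue) and the 2 libraries labelled PRMT5 KD (red), by family. NRP1 is the highest in control at 238 and 281 RPKM, and the red points lie under the blue ones for 30 of the 36 genes.

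Ephrins, the membrane-bound ligands of EPH receptors, fell in 5 of 7 genes tested, beside 24.4% of all genes tested. Those of the A type are anchored by a lipid and those of the B type span the membrane. The A-type ephrins together had 147 and 136 CPM in control against 47.3 and 63 CPM under PRMT5 KD (CPM, counts scaled for depth alone, summed over the 5 genes). The sum over the 3 B-type ephrins was 62.1 and 55.7 CPM in control against 31.7 and 30.1 CPM under PRMT5 KD. Both families were therefore lower in each library labelled PRMT5 KD than in either control.

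EFNA1 (chr1:155127876-155134899, plus strand) had the largest change of any guidance gene. Ephrin-A1 is a ligand of EPHA2. Its level was 24.5 and 12.5 RPKM in control and 0.689 and 0.966 RPKM under PRMT5 KD. The control libraries lay far apart, yet both stood far above the PRMT5 KD libraries, and the mean was 22.3-fold lower (log2 fold change -4.48, standard error 0.42, FDR = 0.00113). The call was lost without PRMT5 KD replicate 1 (-4.22, FDR = 0.0732) and without PRMT5 KD replicate 2 (-4.74, FDR = 0.0707), with little change in size. EFNA5 (chr5:107376894-107670937, minus strand), the A-type ephrin with the highest mean RPKM over all 4 libraries, though below EFNA1 in the control mean, had 14.7 and 17 RPKM in control and 6.75 and 9.16 RPKM under PRMT5 KD. It was 2.0-fold lower (log2 fold change -1.0, standard error 0.17, FDR = 0.00425). EFNA3 (chr1:155078837-155087538, plus strand) was close to the filter, at 0.559 and 0.935 RPKM in control and 0.227 and 0.366 RPKM under PRMT5 KD. Its log2 fold change was -1.34 (FDR = 0.0347), and the call did not hold with total counts, nor without control replicate 1, control replicate 2 or PRMT5 KD replicate 1 (FDR from 0.0528 to 0.238). EFNA4 was not called at -0.30 (FDR = 0.187). EFNA3 and EFNA4 share exons with an annotated readthrough transcript of both genes, so how reads were divided between them is uncertain. EFNA2 had at most 2 counts in any library and was not tested.

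EFNB2 (chr13:106489745-106535662, minus strand), the partner of EPHB4 in the separation of arteries and veins, was the B-type ephrin with the highest mean RPKM over the 4 libraries. It had 9.27 and 7.23 RPKM in control and 4.0 and 3.99 RPKM under PRMT5 KD. The PRMT5 KD libraries were nearly equal and the fall of 2.07-fold exceeded the spread of both groups (log2 fold change -1.05, standard error 0.15, FDR = 0.00213). EFNB2 shares 1822 exon bases with a noncoding gene on the opposite strand, and whether the counting used strand is not given in the sources used here. EFNB3 (chr17:7705202-7711372, plus strand) had 1.68 and 2.34 RPKM in control and 0.784 and 0.553 RPKM under PRMT5 KD. It fell 3.01-fold (log2 fold change -1.59, standard error 0.28, FDR = 0.00452), a call that was lost without control replicate 2 (-1.33, FDR = 0.0597). EFNB1 was not called at -0.34 (FDR = 0.119).

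The bases just upstream of the start of the genes with the largest changes are shown next, since these genes differ most between the groups and the windows let their control regions be compared. They are the 3 largest falls, in EFNA1, PLXND1 and EPHA3, and the largest rise, in PLXNA2. Each window is the 250 bases before the start of transcription in RefSeq on GRCh38.p14, in the direction of the gene. Capitals mark GGGCGG or its reverse complement CCGCCC, the GC box that SP and KLF factors are known to bind, with overlapping copies each counted.
EFNA1 chr1:155127626-155127875 (plus): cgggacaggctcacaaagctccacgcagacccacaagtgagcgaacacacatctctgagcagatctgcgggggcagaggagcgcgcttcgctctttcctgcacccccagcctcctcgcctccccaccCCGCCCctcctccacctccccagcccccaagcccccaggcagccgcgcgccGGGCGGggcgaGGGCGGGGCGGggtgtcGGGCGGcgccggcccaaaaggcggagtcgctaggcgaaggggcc
PLXND1 chr3:129606677-129606926 (minus): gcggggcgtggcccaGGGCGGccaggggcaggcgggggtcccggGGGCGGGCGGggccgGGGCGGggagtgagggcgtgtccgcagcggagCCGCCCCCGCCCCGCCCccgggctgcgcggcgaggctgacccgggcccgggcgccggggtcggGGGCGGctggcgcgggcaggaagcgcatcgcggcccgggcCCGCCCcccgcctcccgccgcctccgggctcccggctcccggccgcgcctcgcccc
EPHA3 chr3:89107371-89107620 (plus): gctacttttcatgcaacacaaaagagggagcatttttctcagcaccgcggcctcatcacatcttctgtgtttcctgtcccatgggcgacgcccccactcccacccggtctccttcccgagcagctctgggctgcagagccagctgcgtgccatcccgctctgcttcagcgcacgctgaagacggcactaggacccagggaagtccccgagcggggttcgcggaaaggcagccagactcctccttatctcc
PLXNA2 chr1:208244385-208244634 (minus): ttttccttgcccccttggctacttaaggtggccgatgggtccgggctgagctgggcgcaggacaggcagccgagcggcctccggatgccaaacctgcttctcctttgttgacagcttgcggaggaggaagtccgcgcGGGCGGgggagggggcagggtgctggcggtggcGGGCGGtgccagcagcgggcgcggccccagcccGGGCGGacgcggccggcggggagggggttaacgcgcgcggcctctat

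GC boxes were found in genes of both directions. PLXND1 held 9 copies, EFNA1 5, PLXNA2 3 and EPHA3 none of these letters. Of the 53 guidance genes, 47 had a window in the RefSeq table, and 37 of these (78.7%) held GGGCGG on either strand, against 42.3% of 27305 genes of all kinds. It was present in 16 of the 21 windows of genes that fell, in both windows of genes that rose and in all 9 windows of genes without a call. A pattern of 4 runs of at least 3 Gs, set 1 to 7 bases apart on either strand, which can fold into a G-quadruplex, was present in 44.7% of the guidance windows and in 22.6% of all windows. It occurred in 10 of the 21 windows of genes that fell and in 4 of the 9 without a call. EFNA1, PLXND1 and PLXNA2 hold it in the windows shown. The 27305 windows include noncoding genes and genes not tested here, whereas the guidance genes are all protein-coding. Shares over protein-coding or tested genes alone were not computed, so these percentages do not show an enrichment in guidance genes. A match describes letters and not a bound site.

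EPH receptors were divided. Of the 14 genes, 6 were tested, of which 3 fell, 1 rose and 2 were not called. Over all genes tested, 24.4% fell and 21.2% rose. The EPHA receptors summed to 439.5 and 346 CPM in control against 285 and 317 CPM under PRMT5 KD, of which EPHA2 made up most. The EPHB receptors summed to 99.7 and 107 CPM in control against 98.8 and 109 CPM under PRMT5 KD, so the sums of the EPHB family overlapped between the groups while its members moved in opposite directions.

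EPHA2 (chr1:16124337-16156069, minus strand), the EPH receptor best known in epithelial and carcinoma cells and the receptor of ephrin-A1, was by far the most abundant EPH gene per length. It had 98.3 and 75.7 RPKM in control and 64.9 and 72.3 RPKM under PRMT5 KD. Both PRMT5 KD libraries were below both control libraries by a small margin, and the gene was not called (log2 fold change -0.34, standard error 0.16, FDR = 0.117). EPHA3 (chr3:89107621-89482134, plus strand), a receptor of ephrin-A5, had 1.99 and 2.36 RPKM in control and 0.208 and 0.382 RPKM under PRMT5 KD. It fell 7.38-fold (log2 fold change -2.88, standard error 0.30, FDR = 0.000793). EPHA5 fell slightly, by 1.43-fold (log2 fold change -0.52, standard error 0.18, FDR = 0.0474). This call at the edge of both thresholds was lost in most alternatives, among them total counts, the length and GC correction and the fits without either control library or PRMT5 KD replicate 2. EPHA4 stood at -0.0219 (FDR = 0.960) with overlapping groups.

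EPHB4 (chr7:100802565-100827523, minus strand), the receptor of ephrin-B2, had the highest mean RPKM of the EPHB genes over the 4 libraries and in control, while EPHB2 was above it in both PRMT5 KD libraries. Its level was 7.04 and 9.05 RPKM in control and 3.79 and 4.80 RPKM under PRMT5 KD. It fell 1.87-fold (log2 fold change -0.91, standard error 0.18, FDR = 0.00673), and the call was lost without control replicate 2 (-0.71, FDR = 0.0649). EPHB2, another receptor of B-type ephrins, was the only EPH gene tested that rose. It had 4.15 and 3.77 RPKM in control and 5.64 and 6.01 RPKM under PRMT5 KD, a rise of 1.47-fold (log2 fold change 0.56, standard error 0.11, FDR = 0.00744). Without control replicate 2 it was not called (0.49, FDR = 0.0786), and after the length and GC correction its log2 fold change was 0.99.

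**Figure D2:**
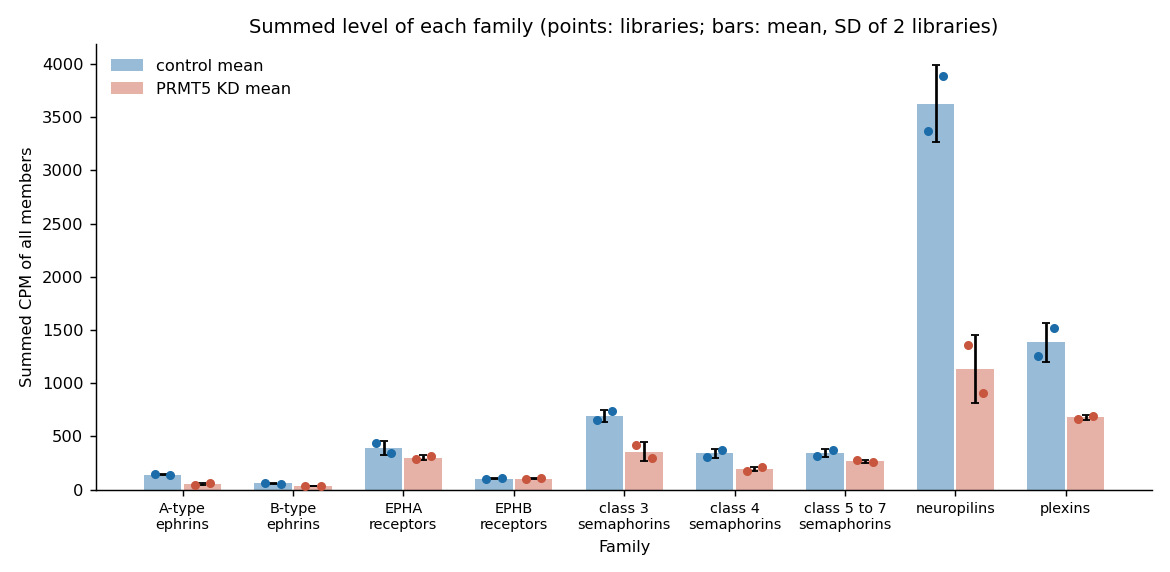
Summed CPM of all members of each family, with libraries as points, group means as bars and the SD of 2 libraries as error bars. Neuropilins hold the largest sums, at 3374 and 3884 CPM in control against 1356 and 905 CPM under PRMT5 KD, and the EPHB sums overlap.

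Semaphorins, the ligands of plexins, fell in 8 of 14 genes tested and rose in none, beside 24.4% lower and 21.2% higher of all genes tested. Their sum over all 20 genes was 1283 and 1477 CPM in control against 878 and 764 CPM under PRMT5 KD. The class 3 semaphorins are secreted, and 3 of the 5 tested fell. SEMA3C (chr7:80742538-80922359, minus strand) was the semaphorin with the highest mean RPKM over the 4 libraries and in control, though not in the PRMT5 KD mean, at 90.2 and 99.5 RPKM in control and 54.3 and 30.2 RPKM under PRMT5 KD. The PRMT5 KD libraries differed widely from each other but were both under the control libraries, and the fall was 2.25-fold (log2 fold change -1.17, standard error 0.29, FDR = 0.0191). It was not called without control replicate 1 (-1.24, FDR = 0.0634) or control replicate 2 (-1.10, FDR = 0.0923). SEMA3B (chr3:50267558-50277546, plus strand), described as a tumour suppressor in several carcinomas, had 5.92 and 7.88 RPKM in control and 1.04 and 1.74 RPKM under PRMT5 KD. Its fall was 4.97-fold (log2 fold change -2.31, standard error 0.29, FDR = 0.00182).

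SEMA3E, the class 3 member that binds PLXND1 without a neuropilin, had 1.46 and 1.31 RPKM in control and 0.729 and 0.938 RPKM under PRMT5 KD. Its log2 fold change was -0.73 (FDR = 0.0170), and it was not called with total counts (FDR = 0.0525) or without either control library (FDR = 0.123 and 0.0826). SEMA3A and SEMA3F, classical repellents that use NRP1 and NRP2 respectively, had log2 fold changes of 0.37 (FDR = 0.136) and 0.46 (FDR = 0.0335) and were not called, the second for its size. Both PRMT5 KD libraries were above both control libraries for each. Without PRMT5 KD replicate 1 both were called higher (SEMA3A 0.62, FDR = 0.00536, SEMA3F 0.59, FDR = 0.00669), and after the length and GC correction too.

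Class 4 semaphorins span the membrane, and 3 of the 5 tested fell, beside 24.4% of all genes tested. SEMA4B (chr15:90160604-90229679, plus strand) had the highest mean RPKM among them over the 4 libraries, with 22 and 26.8 RPKM in control and 10.8 and 14.1 RPKM under PRMT5 KD. It fell 1.96-fold (log2 fold change -0.97, standard error 0.17, FDR = 0.00457). SEMA4F (chr2:74654228-74683853, plus strand) had 8.71 and 10.5 RPKM in control and 3.27 and 3.98 RPKM under PRMT5 KD, and it fell 2.65-fold (log2 fold change -1.40, standard error 0.16, FDR = 0.000850). SEMA4G (chr10:100969504-100985871, plus strand) had 1.69 and 2.36 RPKM in control and 0.408 and 0.458 RPKM under PRMT5 KD, and it fell 4.67-fold (log2 fold change -2.22, standard error 0.24, FDR = 0.000755). In all 3 genes the PRMT5 KD libraries were below both control libraries. SEMA4G shares 1215 exon bases with MRPL43 on the opposite strand, and whether the counting used strand is not given in the sources used here. SEMA4C and SEMA4D, ligands of PLXNB2 and PLXNB1, were not called at -0.23 (FDR = 0.117) and -0.30 (FDR = 0.0973).

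Among classes 5 to 7, SEMA6B and SEMA6C fell and SEMA5A and SEMA7A were not called. SEMA7A (chr15:74409289-74433958, minus strand), which a lipid anchors and which binds PLXNC1 and integrins, had the highest mean RPKM of these over the 4 libraries. It had 41.6 and 52.7 RPKM in control and 48.9 and 39.9 RPKM under PRMT5 KD, with overlapping groups (log2 fold change -0.0881, standard error 0.16, FDR = 0.673). SEMA6B had 27.4 and 30.9 RPKM in control and 15.9 and 19.5 RPKM under PRMT5 KD and a log2 fold change of -0.72 (FDR = 0.00632). SEMA6C had 3.01 and 2.76 RPKM in control and 1.52 and 1.98 RPKM under PRMT5 KD and a log2 fold change of -0.72 (FDR = 0.0140). These 2 calls were lost after the length and GC correction (-0.40, FDR = 0.0510, and -0.46, FDR = 0.0662) and without control replicate 2, and that of SEMA6C also without control replicate 1 (FDR = 0.0655 to 0.101). SEMA5A had 0.624 and 0.615 RPKM in control and 0.519 and 0.192 RPKM under PRMT5 KD, and its 2 PRMT5 KD libraries were far apart (log2 fold change -0.80, standard error 0.46, FDR = 0.194). Without PRMT5 KD replicate 1 it was called lower (-1.65, FDR = 0.000192).

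**Figure D3:**
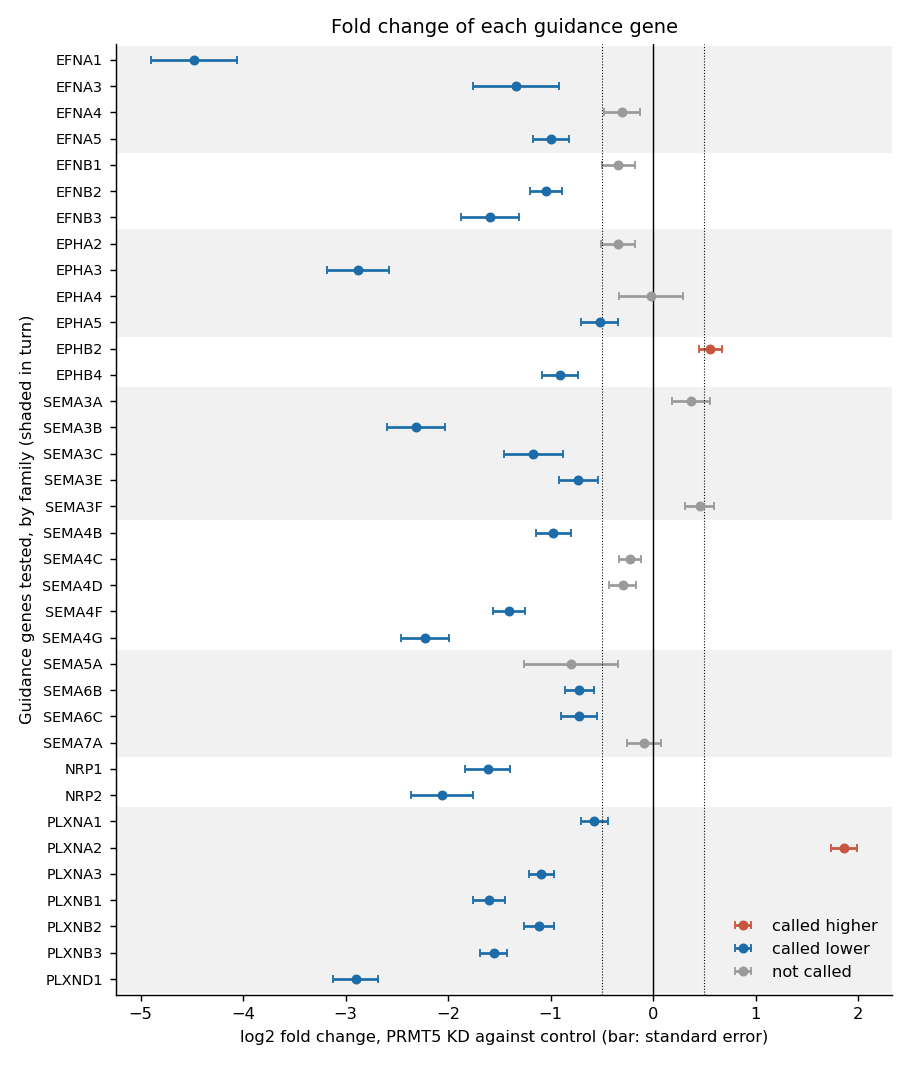
Log2 fold change of each guidance gene tested, PRMT5 KD against control, with its standard error from edgeR, by family; dotted lines mark the threshold of 0.5 in either direction. Blue points were called lower (24), red higher (2) and grey not called (10), and EFNA1 at -4.48 and PLXNA2 at 1.86 lie farthest out.

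Both neuropilins, co-receptors that pair with A-type plexins, fell. NRP1 (chr10:33177492-33336262, minus strand), which also binds VEGF, had the highest mean RPKM of all guidance genes over the 4 libraries, though EPHA2 was above it in PRMT5 KD replicate 2, and took 41.1% and 43.1% of all guidance counts in control. It had 238 and 281 RPKM in control and 100.4 and 69.2 RPKM under PRMT5 KD. The fall of 3.06-fold was larger than the spread of either group (log2 fold change -1.61, standard error 0.22, FDR = 0.00169). NRP2 (chr2:205681990-205798133, plus strand) had 45.6 and 46.3 RPKM in control and 14.3 and 7.76 RPKM under PRMT5 KD, with control libraries that nearly coincided. It fell 4.16-fold (log2 fold change -2.06, standard error 0.30, FDR = 0.00352). All 53 guidance genes summed to 6662 and 7520 CPM in control against 3359 and 2883 CPM under PRMT5 KD. Without NRP1 the sum was 3922 and 4280 CPM in control against 2202 and 2086 CPM under PRMT5 KD, so the lower total did not rest on this gene alone.

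Plexins, the semaphorin receptors, fell in 6 of 7 genes tested, and PLXNA2 rose, beside 24.4% lower and 21.2% higher of all genes tested. PLXND1 (chr3:129555214-129606676, minus strand), the receptor of SEMA3E, had the largest fall among receptors. It had 23 and 32.5 RPKM in control and 3.26 and 4.16 RPKM under PRMT5 KD, a fall of 7.48-fold (log2 fold change -2.90, standard error 0.22, FDR = 0.000428). All 3 B-type plexins fell. PLXNB2 (chr22:50274979-50307646, minus strand), the plexin with the highest RPKM in every library, had 60.3 and 73.2 RPKM in control and 30.1 and 31.8 RPKM under PRMT5 KD. It fell 2.16-fold (log2 fold change -1.11, standard error 0.14, FDR = 0.00143).

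PLXNB1 (chr3:48403854-48430086, minus strand), the receptor of SEMA4D, had 7.50 and 8.83 RPKM in control and 2.39 and 3.0 RPKM under PRMT5 KD. Its fall was 3.03-fold (log2 fold change -1.60, standard error 0.16, FDR = 0.000599). PLXNB3 (chrX:153764196-153779346, plus strand), a receptor of SEMA5A, had 6.42 and 7.36 RPKM in control and 2.46 and 2.23 RPKM under PRMT5 KD, a fall of 2.94-fold (log2 fold change -1.56, standard error 0.13, FDR = 0.000452). No B-type plexin lost its call in any alternative, although PLXNB2 was at -0.74, FDR = 0.00460 after the length and GC correction described further on. PLXNB3 shares 1432 exon bases with SRPK3 on the same strand, so part of its reads could belong to that gene.

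A-type plexins, which pair with neuropilins, were divided. PLXNA2 (chr1:208022242-208244384, minus strand) had 1.22 and 1.10 RPKM in control and 4.44 and 3.99 RPKM under PRMT5 KD. The libraries of each group were close to each other, and the rise was 3.64-fold (log2 fold change 1.86, standard error 0.13, FDR = 0.000285). PLXNA3 (chrX:154458281-154477779, plus strand) had 7.20 and 7.46 RPKM in control and 3.69 and 3.20 RPKM under PRMT5 KD, a fall of 2.13-fold (log2 fold change -1.09, standard error 0.12, FDR = 0.000825), and was at -0.64, FDR = 0.00414 after the correction. PLXNA1, the most abundant of the A type per length, had 33.3 and 37.9 RPKM in control and 23.3 and 24.5 RPKM under PRMT5 KD. It fell 1.49-fold (log2 fold change -0.57, standard error 0.13, FDR = 0.0109), but its log2 fold change was -0.0663 (FDR = 0.683) after the length and GC correction and -0.39 with total counts, and the call was also lost without control replicate 2 (-0.48, FDR = 0.100) and, at -0.498, without PRMT5 KD replicate 1. PLXNA1 and PLXNA2 therefore lay on opposite sides of 0 in all these fits.

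Guidance genes are long, and fold changes in these libraries varied with length. Median exon length was 6507 bases over the 36 genes and 5381 bases over all genes tested. From the shortest to the longest of 10 equal length classes of all genes, the median log2 fold change went from 0.24 to -0.29. With both exon length and GC content corrected for, the 36 genes had a median of -0.65 and all genes one of 0.0604. Of the 36 genes, 21 were then called lower (21.0% of all genes) and 4 higher (24.1%). EPHA5, PLXNA1, SEMA6B and SEMA6C lost their calls, and EFNA4 was added to the genes that fell (-0.61, FDR = 0.0266). SEMA3A (0.56, FDR = 0.0429) and SEMA3F (0.66, FDR = 0.00686) joined EPHB2 and PLXNA2 among those that rose.

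**Figure D4:**
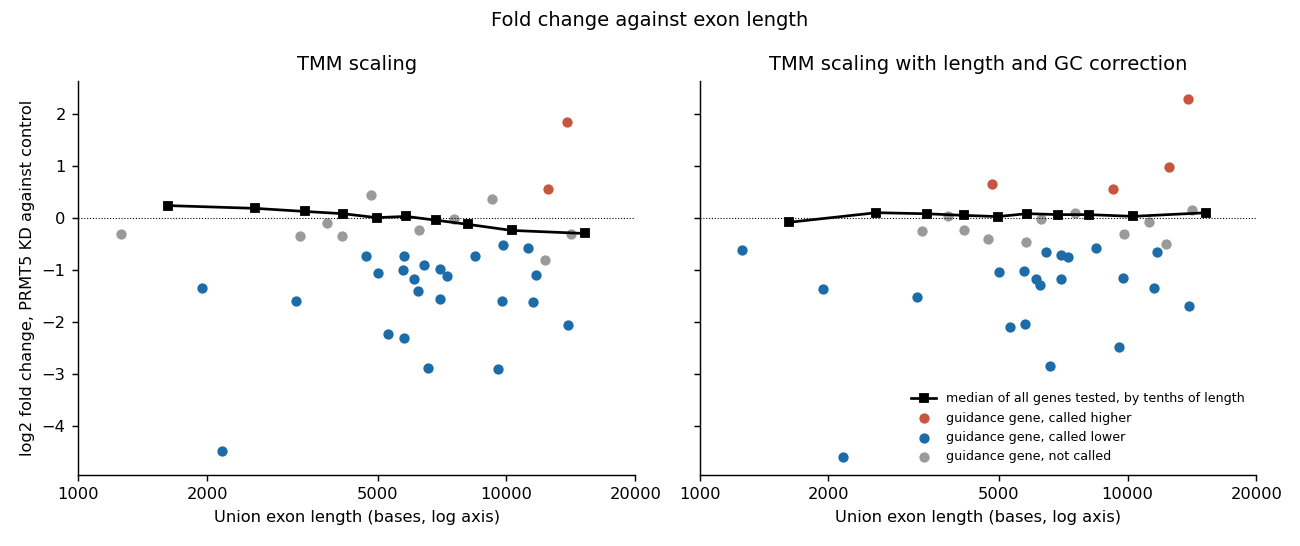
Log2 fold change against union exon length (log axis) for the guidance genes tested (points) and the median of all genes in 10 length classes (black line), with TMM scaling (left) and after the length and GC correction (right). The black line falls from 0.24 to -0.29 on the left and is nearly level on the right, and most points stay below it in both panels.

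The 17 guidance genes below the filter were mostly near 0 by RPKM. Of these, 10 had a mean under 25 counts per library. By contrast, EPHA6 had 172 to 228 counts per library and PLXNC1 206 to 467. Their union exons are long (18310 and 10033 bases), and RPKM divides by that length. The highest level was 0.973 RPKM on the TMM scale, for PLXNC1, the receptor of SEMA7A, in PRMT5 KD replicate 2. A fit without the filter, in which 19.2% of 16836 genes were called lower and 17.5% higher, called 5 of the 17 lower and 2 higher. EPHB1, a receptor of B-type ephrins, rose, with 40 and 29 counts in control against 154 and 124 under PRMT5 KD (1.94, FDR = 0.00246). PLXNA4 had 1 and 9 counts in control against 39 and 39 under PRMT5 KD (FDR = 0.00601), and since control replicate 1 was under a floor of 3 counts no fold is given.

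SEMA3G had 53 and 105 counts in control against 10 and 12 under PRMT5 KD (-2.84, FDR = 0.000858). SEMA6A had 129 and 162 counts in control against 74 and 70 under PRMT5 KD (-1.05, FDR = 0.0141). EPHB3 had 42 and 44 counts in control against 17 and 18 under PRMT5 KD (-1.34, FDR = 0.0275). These 3 genes were lower in both PRMT5 KD libraries in that fit. SEMA6D (FDR = 0.0216) was called lower as well, from 20 and 28 counts to 3 and 8, with 1 library at that floor. EPHA7 passed too (FDR = 0.0362), on 3 and 9 counts in control and 0 in both PRMT5 KD libraries, so that 3 of the 4 libraries are at or under the floor and no fold is given. EPHA1, EPHA6, EPHA8, EPHA10, EPHB6, PLXNC1, SEMA3D, SEMA4A, SEMA5B and EFNA2 were not called. EPHA10 and EPHB6, both known to lack kinase activity, had at most 19 counts in any library.

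Other guidance ligands and receptors, and the proteins that carry ephrin and plexin signals inside the cell, were followed in 3 lists written from general knowledge. Of 72 genes, 50 were tested, of which 19 fell, 4 rose and 27 were not called, with a median log2 fold change of -0.32. Over all genes tested, as above, 24.4% fell and 21.2% rose. NTNG2 and PTPRO, both called lower, and UNC5B, not called, passed the filter through control alone. Without control replicate 2, 12 fell, and without either control library 2 rose. Of 22 genes of the SLIT, ROBO, netrin, DCC, UNC5 and RGM families, 10 were tested, and 4 of these fell and none rose (median -0.56). The netrin-G genes, which encode lipid-anchored relatives of netrins, fell most. NTNG2 had 0.697 and 0.638 RPKM in control and 0.142 and 0.0872 RPKM under PRMT5 KD, a log2 fold change of -2.54 (FDR = 0.00141). NTNG1 had 4.66 and 5.95 RPKM in control and 0.941 and 1.12 RPKM under PRMT5 KD, with a log2 fold change of -2.36 (FDR = 0.000319). NEO1 (neogenin), a receptor of netrins and RGM proteins, had 15.3 and 19.3 RPKM in control and 6.11 and 7.69 RPKM under PRMT5 KD, with a log2 fold change of -1.32 (FDR = 0.00147). Both PRMT5 KD libraries were below both control libraries for these 3 genes. The remaining call, NTN4, at -0.64 (FDR = 0.0488), was chosen for mention after its value was seen, and it was lost in most alternatives. Without control replicate 1 its log2 fold change was -0.33.

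Of 27 genes of semaphorin and plexin signalling, 23 were tested, of which 9 fell, 2 rose and 12 were not called (median -0.15), beside 24.4% and 21.2% of all genes. DPYSL2, which encodes the CRMP2 protein that semaphorin-3A signalling acts on, had 26.7 and 30.0 RPKM in control and 8.53 and 8.81 RPKM under PRMT5 KD. Its log2 fold change was -1.71 (FDR = 0.000285). DPYSL4, another gene of the CRMP family, moved in the opposite direction, with 0.942 and 0.880 RPKM in control and 2.76 and 2.33 RPKM under PRMT5 KD. Its log2 fold change was 1.48 (FDR = 0.00171). MICAL2, a relative of the plexin-bound MICAL1 that oxidises actin, had 30.2 and 34 RPKM in control and 15.4 and 11.9 RPKM under PRMT5 KD and a log2 fold change of -1.24 (FDR = 0.00169), or -0.74, FDR = 0.00836 after the length and GC correction. L1CAM, an adhesion molecule that associates with NRP1, had 1.88 and 2.03 RPKM in control and 0.942 and 0.785 RPKM under PRMT5 KD and a log2 fold change of -1.18 (FDR = 0.00188). FARP2, which links plexin-A1 to RAC1, had 0.925 and 1.08 RPKM in control and 1.26 and 1.78 RPKM under PRMT5 KD and a log2 fold change of 0.60 (FDR = 0.0416), a call that was lost when either control library or PRMT5 KD replicate 2 was left out (0.34 to 0.72, FDR from 0.117 to 0.222).

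Of 23 genes of ephrin and EPH signalling, 17 were tested, of which 6 fell, 2 rose and 9 were not called (median -0.33), beside the same 24.4% and 21.2%. PTPRO, a phosphatase that acts on EPH receptors, had 0.841 and 0.895 RPKM in control and 0.220 and 0.0681 RPKM under PRMT5 KD. The PRMT5 KD libraries lay far apart, and the log2 fold change was -2.59 (FDR = 0.0150), lost without control replicate 2 (-2.54, FDR = 0.0567). INPPL1 (SHIP2), a lipid phosphatase that binds EPHA2, had 44.3 and 42.4 RPKM in control and 25.7 and 25.5 RPKM under PRMT5 KD and a log2 fold change of -0.76 (FDR = 0.00213). ADAM10, the protease that cuts ephrins from the cell surface, had 25.9 and 30.1 RPKM in control and 16.2 and 16.9 RPKM under PRMT5 KD and a log2 fold change of -0.76 (FDR = 0.00435), and without control replicate 2 it was not called (-0.64, FDR = 0.0520). After the length and GC correction ADAM10 (-0.38, FDR = 0.0519) and INPPL1 (-0.494, FDR = 0.0109) were not called. VAV2, an exchange factor that EPH receptors recruit, rose 1.80-fold, with 4.49 and 4.52 RPKM in control and 7.40 and 8.80 RPKM under PRMT5 KD (log2 fold change 0.85, standard error 0.13, FDR = 0.00260). The kinase gene SRC had 7.94 and 7.88 RPKM in control and 11.3 and 11.4 RPKM under PRMT5 KD and a log2 fold change of 0.52 (FDR = 0.00682), and without either control library it was not called (FDR = 0.0558 and 0.0674).

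**Figure D5:**
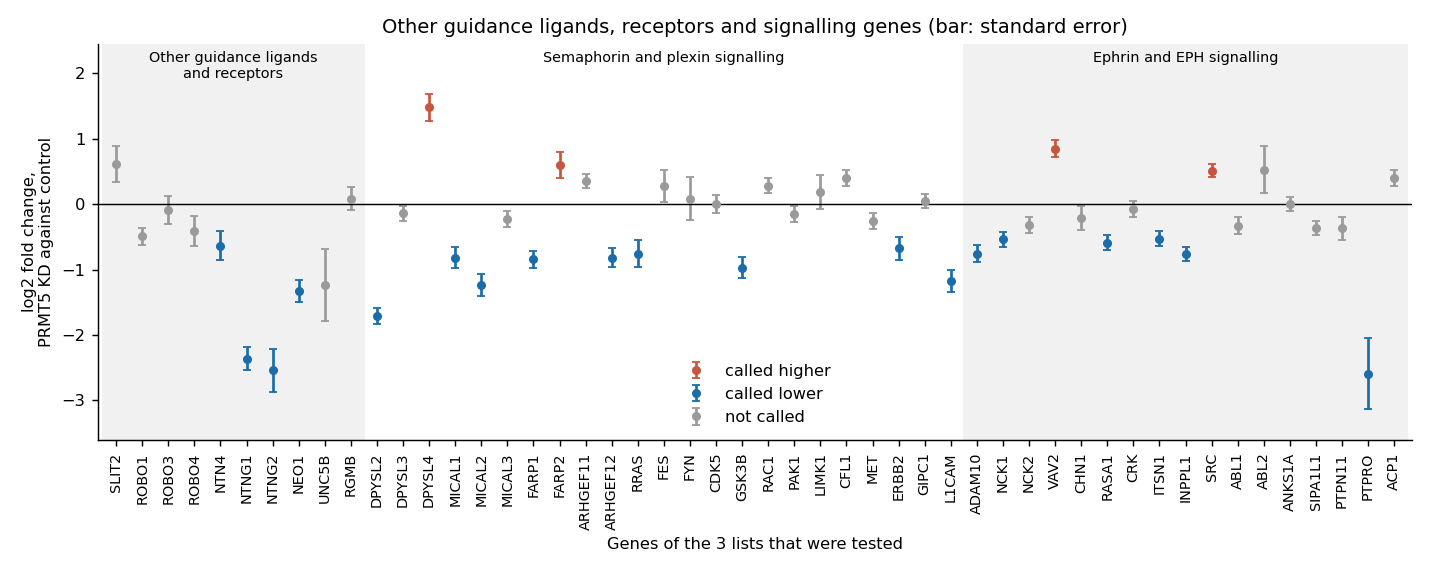
Log2 fold change with standard error for the 50 genes tested in the lists of other guidance ligands and receptors, semaphorin and plexin signalling, and ephrin and EPH signalling. Blue points were called lower (19), red higher (4) and grey not called (27); the lowest is PTPRO at -2.59 and the highest DPYSL4 at 1.48.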

How the data were processed

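RNA-seq was analysed for 2 control and 2 PRMT5 KD samples of UMSCC74B cells. The authors deposited estimated counts per gene name, one table per library, not normalized, of which 86.0% to 86.8% are whole numbers. The submitters' processing notes name FastQC, Trim Galore, STAR, Salmon, DESeq2 and GRCh38. The methods of the paper give STAR, uniquely mapped reads and FeatureCounts on protein-coding genes, whereas the tables hold RefSeq-style names with noncoding genes. Which program made the estimates is therefore not settled here, and how it handled strand is not given in the sources used here.

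Names turned into dates by a spreadsheet (28 entries, 0.150% to 0.161% of counts) were left out, and rows with the same name were summed. All 53 members matched GENCODE release 44 by symbol, which gave coordinates, union exon lengths and GC content on GRCh38. Counts were rounded. Protein-coding genes that reached 0.5 RPKM, computed on each library's protein-coding total before TMM scaling, in the 2 libraries of either group were compared with the quasi-likelihood test of edgeR 4.0.16 (R 4.3.3, robust dispersion, TMM factors 0.935 to 1.09) and Benjamini-Hochberg adjustment (FDR) over 11895 genes. Calls needed an FDR under 0.05 and a log2 fold change of at least 0.5 in size. Standard errors are the fold change over the square root of F. Printed RPKM and CPM values use TMM-scaled totals of the genes tested, so PLXNC1, above 0.5 in both control libraries on that scale, was below the filter. The floor of 3 counts covers counting error only.

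Genes were given with values in each library where they were called with a log2 fold change of at least 1 in size or had the highest mean RPKM of their family. From the 3 other lists the 3 called genes with the largest change per direction and separate groups were named. EPHA5, EPHB2, PLXNA1, SEMA3E, SEMA5A, SEMA6B and SEMA6C, and EPHA7, EPHB1, EPHB3, PLXNA4, SEMA3G, SEMA6A and SEMA6D by counts, were added after their values were seen. The members, lists and rules were chosen with earlier results of these data known. Alternatives were DESeq2 1.42.0, other scalings and filters, all gene names, non-robust dispersion, a threshold of 1, each library left out in turn, a replicate block and a length and GC correction (natural splines with 4 degrees of freedom). The procedure was tested on simulated data in which few genes changed, in equal numbers up and down. That simulation cannot check scaling or error rates under changes as broad as those seen here. One leukocyte marker is not reported here. Promoter windows came from RefSeq on GRCh38.p14.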

Additional observations from a re-analysis of the deposited data

How the results depend on the processing

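The crossed pairing was added after seeing the data. Under DESeq2, RLE size factors and non-robust dispersion, the same 26 guidance genes were called as in the comparison reported. The number called lower was 24 and lay between 15 and 22 in the fits that each left out 1 library, in which the lone library of a group is assumed to vary like the other group. It stayed within 1.5 times in the other alternatives. The number called higher was 2. It was 1 at a threshold of 1, 5 without a filter, 5 with filterByExpr, 4 with the length and GC correction (4 with the replicate block added), and 1 to 4 with a library left out.

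For the 3 other lists, 19 genes fell and 4 rose. At a threshold of 1 these were 7 and 1. The number higher was 7 with total counts and 7 with the length and GC correction, also with the replicate block (7). With a library left out, 12 to 19 fell and 2 to 4 rose. Over all genes tested, 2898 were lower and 2523 higher, against 1529 and 1032 at a threshold of 1 and 1772 to 2950 lower and 1361 to 2764 higher with a library left out, the lowest numbers being those without control replicate 2. Total counts moved the median of the guidance genes to -0.76.

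Changes of sign were seen only in genes without a call. EPHA4 (-0.0219) was at 0.15 with total counts, 0.0309 without a filter, 0.0390 with filterByExpr, 0.0253 with the replicate block, 0.0949 with the length and GC correction (0.14 with the block), 0.0260 with the crossed pairing, and -0.40 to 0.47 in the fits without 1 library. SEMA4D was at 0.15 with the length and GC correction (0.16 with the block). SEMA7A (-0.0881) was at 0.0879 with total counts, 0.0426 with the correction (0.0427 with the block), and -0.25 to 0.0923 in the fits without 1 library.

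Libraries share replicate numbers, but neither the labels nor the methods say that these mark pairs, and the deviations of same-numbered libraries had a correlation of -0.101 across genes. The replicate block gave 23 guidance genes lower and 2 higher, with EPHA5 lost, and 2781 lower and 2404 higher over all genes. The crossed pairing gave 23 and 2, and 2942 and 2545. Depth limits the genes with few counts most: EFNA3 passed the filter on 21 to 91 counts per library.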
